A study of Mus musculus with 16 samples.

Results

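The subject was how the response to tumour necrosis factor (TNF) differed between 2 genotypes of mouse small intestinal organoids, that is, the difference of the TNF responses gene by gene. Organoids are epithelial cultures grown from intestinal crypts. All 16 of the 16 libraries of the series entered, in 4 groups of 4 labelled samples: Atg16L1 f/f, which the submitters describe as wild type, and Atg16L1 dIEC, which they describe as ATG16L1-deficient, each either unstimulated or given murine TNFa at 20 ng/ml, the exposure lasting 2 hours. Every group was of the C57BL/6 strain and at day 3 of culture, and the labels name no animal, age, Cre driver, culture or library batch. The p-values therefore describe no more than the spread among these libraries, and that spread may be technical. Of 23847 rows of the expression table, 11097 whose 16 values averaged 1 FPKM or more were kept, and each is called a gene. FPKM counts fragments per unit of transcript length and per mapped fragment of the library. The response in a genotype was the mean log2(FPKM + 1) with TNF minus the mean without, and the difference of responses was the response in dIEC minus the response in f/f, so a positive value marks a response that was more upward, or less downward, in dIEC. A gene was called at an adjusted p under 0.05 by limma, over all kept genes.

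TNF binds its receptors on epithelial cells and activates NF-kB and AP-1 transcription factors, which raise chemokines, survival genes and their own inhibitors, and under some conditions it triggers cell death. ATG16L1 is part of the complex that conjugates LC3 proteins to membranes in autophagy, the degradation of cell contents in lysosomes. In the mouse intestine its loss in the epithelium is known to disturb Paneth cells and to sensitise the epithelium to TNF-induced necroptosis, a lytic death carried out by MLKL. Interferons signal through receptor-bound kinases to raise a large antiviral gene programme.

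Most defining epithelial markers were high and most of other tissues low, and Atg16l1 was lower in the dIEC libraries. Epcam, an epithelial adhesion molecule, lay at 291 to 367 FPKM and Vil1, a brush border protein, at 95.9 to 168 FPKM in all libraries, whereas Ptprc, the pan-leukocyte marker, did not exceed 0.114 FPKM. Cd3e of T cells was listed at 0 in 8 libraries and Col1a1 of fibroblasts in 6. Itgam, a myeloid integrin, lay at 0.672 to 1.09 FPKM in all libraries, about the level of the tuft cell gene Dclk1 at 0.698 to 1.17 FPKM. Atg16l1 had 8.37, 9.37, 9.32 and 8.81 FPKM in the unstimulated f/f libraries and 5.74, 6.41, 5.20 and 5.20 FPKM in unstimulated dIEC. With TNF the values were 9.60, 10.8, 10.2 and 11.1 FPKM in f/f and 7.52, 7.63, 7.08 and 6.74 FPKM in dIEC. All dIEC libraries lay below all f/f libraries of the same treatment, and the TNF response of Atg16l1 itself did not pass the test of a difference (0.12 ± 0.09 SE on the log2 scale, adjusted p = 0.703). FPKM values summed to between 494221 and 610125 per library, and the number of reads behind them is unknown. The libraries numbered 1 of f/f and 4 of dIEC, with and without TNF, stood apart from the other 12 on the second principal component (10.3% of the variance). Their levels correlated with the GC content of the transcripts by a Spearman rho of -0.705 to -0.392 across genes. In the other 12 libraries rho was -0.302 to 0.111 without TNF and 0.413 to 0.622 with TNF. This correlation thus shifted with TNF, and its part in the TNF responses was not tested.

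The response to TNF differed between the genotypes for 365 of 11097 genes (3.29%), of which 154 (1.39%) had a higher value in dIEC and 211 (1.9%) a lower one. Which direction held more genes depended on the fit: without the 4 libraries that stood apart 532 were higher and 435 lower, and with sample weights 1239 and 681. Only 28 of the 365 differed by at least 1 on the log2 scale, so most differences were of modest size. By comparison, TNF alone raised 2986 genes (26.9%) and lowered 2249 (20.3%) in f/f, and raised 3702 (33.4%) and lowered 2195 (19.8%) in dIEC. Of the 4362 genes called in both genotypes, 4325 moved the same way. Most responses called in one genotype alone did not pass the test of the difference. Of 873 genes called only in f/f, 51 passed the test of the difference, and of 1535 called only in dIEC, 105 did. The 5 comparisons used share libraries with each other, so their calls are not independent.

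The 365 genes fell into 5 classes by the calls within each genotype. In 141 the response had the same sign in both genotypes and was larger in dIEC (amplified, 55 upward and 86 downward), and in 32 it was smaller (dampened, 22 upward and 10 downward). In 105 it was called in dIEC alone (gained, 54 upward and 51 downward), and in 51 in f/f alone (lost, 27 upward and 24 downward). The remaining 36 were called in both with opposite signs, 25 falling in dIEC and 11 rising. The class names describe calls: counting only the signs of the estimates, 107 of the 365 pointed in opposite directions. The median response of the amplified upward genes was 0.55 in f/f and 1.22 in dIEC on the log2 scale, and that of the amplified downward genes was -0.50 and -1.02. Among the opposite genes that fell in dIEC the medians were 0.24 and -0.29. Leaving out 1 library gave 240 to 450 calls, the lowest without f/f unstimulated 4, and without the 4 libraries that stood apart there were 967, of which 344 were among the 365. The same fits gave 85 to 228 genes higher in dIEC, 28 to 62 lost, 17 to 41 dampened (all 3 lowest without f/f unstimulated 4) and 22 to 39 opposite (lowest without f/f TNF 3).

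**Figure D1:**
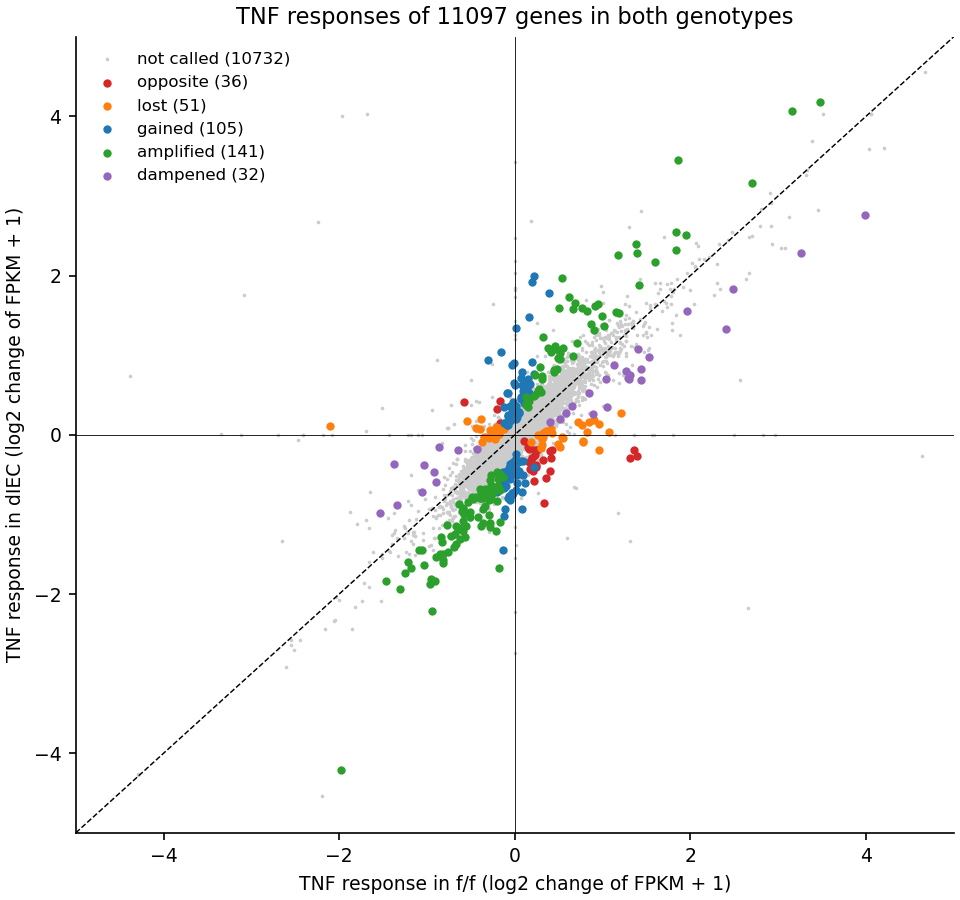
Response to TNF in f/f (x axis) and in dIEC (y axis), each as a log2 change of FPKM + 1, for 11097 genes; coloured points are the 365 genes whose responses differed by limma, in the 5 classes, grey points the other genes, and the dashed line marks equal responses. The amplified genes lie farther from 0 on the y axis than on the x axis, the opposite genes lie at the upper left and lower right, and gained and lost genes lie near one of the axes. The axes end at 5 on either side of 0, which leaves out 10 genes, 0 of them called.

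The genotypes differed in more genes with TNF than without. dIEC and f/f differed in 258 genes without TNF (2.32%) and in 721 with TNF (6.5%). Among the 365 genes, 227 differed between the genotypes with TNF only, 45 without TNF only, 47 in both states and 46 in neither, and the absolute genotype difference was the larger with TNF for 286. In 36 of the 47 the genotype difference had opposite signs in the 2 states. In the classes with a lower response in dIEC (amplified, gained and opposite downward, lost and dampened upward), dIEC was by median above f/f before TNF and below it after. Amplified downward genes had median genotype differences of 0.21 and -0.28 on the log2 scale, gained downward genes 0.21 and -0.30, and opposite genes that fell in dIEC 0.24 and -0.31. Lost upward genes had 0.20 and -0.32, and dampened upward genes 0.20 and -0.25. In the classes with a higher response in dIEC the medians before TNF were slightly below 0, at -0.04 for amplified upward, -0.06 for gained upward, -0.07 for opposite upward, -0.10 for lost downward and -0.04 for dampened downward genes. With TNF they were 0.47, 0.32, 0.21, 0.16 and 0.46 in the same order. The unstimulated groups enter these differences and the differences of responses alike, so this describes the classes and is no separate evidence for them. In bulk libraries, a change in the number of cells of a type and a change of RNA per cell cannot be told apart.

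**Figure D2:**
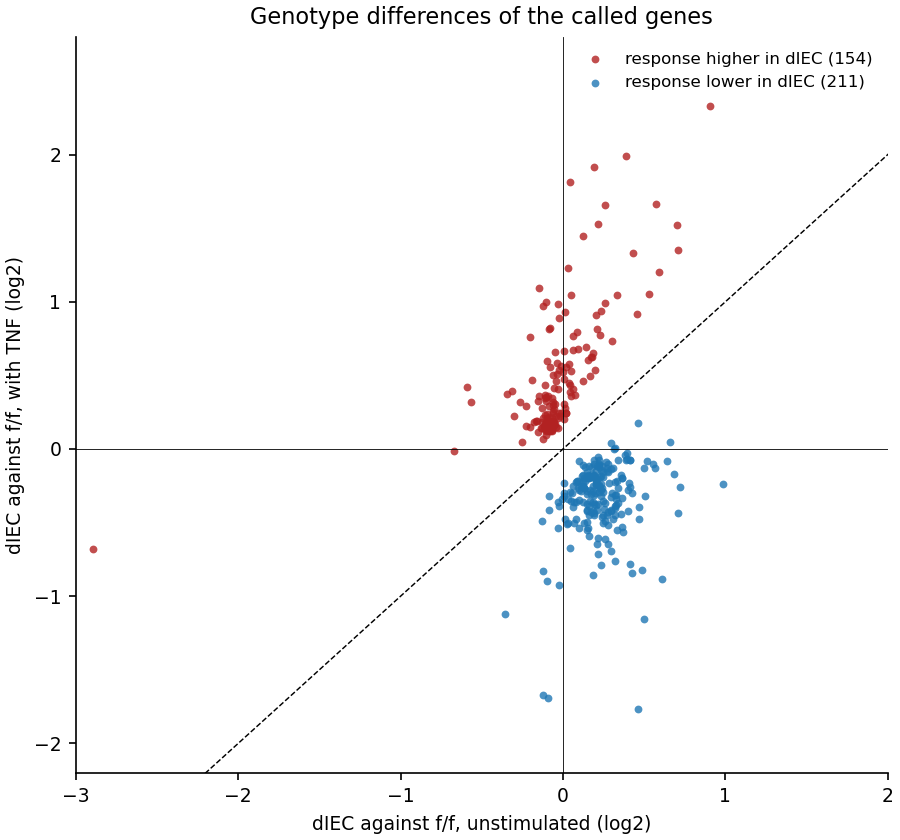
Genotype difference (dIEC against f/f, log2 of FPKM + 1) without TNF on the x axis and with TNF on the y axis for the 365 genes whose TNF responses differed; red points are the 154 genes with a higher response in dIEC and blue points the 211 with a lower one, and the dashed line marks equal differences. The blue points lie mostly right of 0 and below 0, and the red points mostly near 0 on the x axis and above 0 on the y axis. The isolated red point at the left is Fmr1nb.

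No gene of the NF-kB lists was called for a difference, and in lists this short that is near the share called over all genes. Among 13 genes of NF-kB feedback and 8 NF-kB subunits and relatives, none passed the test of a difference, against 3.29% over all genes, and the median differences were 0.05 and 0.07, near the 0.03 of all genes. At unadjusted p under 0.05 there were 1 and 0. Of the 13, 10 rose in each genotype. Nfkbia, the inhibitor that NF-kB induces against itself, went from a mean of 17.2 to 183 FPKM in f/f and from 20.2 to 212 FPKM in dIEC, with a difference of responses of 0.00 ± 0.12 SE. Tnfaip3, which encodes the ubiquitin-editing inhibitor A20, differed by -0.01 ± 0.08 SE on the same scale. None of 21 AP-1 and other early genes and none of 13 dual-specificity phosphatases passed by limma, against 3.29% over all genes (3 and 1 at unadjusted p under 0.05). Jun, an AP-1 subunit, had a difference of 0.12 ± 0.14 SE (adjusted p = 0.876). A difference that did not pass is not shown to be 0. These genes were named after their values were seen.

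The cytokine list held exceptions: 3 of 12 kept chemokines and cytokines had a higher response in dIEC and none a lower one (1.39% and 1.9% over all genes, median difference 0.15), and 1 was called without f/f unstimulated 2 or 4, dIEC unstimulated 1, 2 or 3, f/f TNF 2, or dIEC TNF 2 or 3. Tnf itself had 0.782, 0.826, 0.707 and 0.904 FPKM in the unstimulated f/f libraries and 8.93, 11.0, 11.8 and 11.4 FPKM with TNF. The dIEC values were 0.880, 1.01, 0.978 and 1.27 FPKM without and 17.1, 16.4, 18.4 and 16.7 FPKM with TNF. Every dIEC library with TNF was above every f/f library with TNF, while the unstimulated ranges overlapped. On the log2 scale the response was 2.70 in f/f and 3.16 in dIEC (difference 0.46 ± 0.11 SE, adjusted p = 0.0327). As folds of the mean FPKM the responses were 13.4 and 16.6, and the call was lost with a pseudocount of 0.1 (adjusted p = 0.313), with a minimum mean of 5 FPKM and in 9 of the 16 fits that left out 1 library, those without f/f unstimulated 2 and 4, f/f TNF 2, dIEC unstimulated 1, 2 and 3 and dIEC TNF 1, 2 and 3 (adjusted p up to 0.0762). Cxcl16, a membrane-bound chemokine, rose 4.92-fold in f/f and 7.40-fold in dIEC (difference 0.56 ± 0.11 SE, adjusted p = 0.00846). Cxcl10, an interferon-inducible T cell attractant named after its value was seen, rose from 0.510 to 16.0 FPKM in f/f and from 0.574 to 27.9 FPKM in dIEC (adjusted p = 0.0413), past the threshold in 5 of the 16 fits. Ccl20, which attracts lymphocytes and dendritic cells and was also named after its value was seen, reached 244 and 290.4 FPKM and did not pass (difference -0.12, adjusted p = 0.777). Of 13 kept TNF superfamily and adhesion genes, 1 passed (7.69%, against 3.29% over all genes). This was Cd83, an activation marker and regulator of MHC class II turnover, which rose 3.25-fold in f/f and 1.99-fold in dIEC (difference -0.61 ± 0.10 SE, adjusted p = 0.00380).

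Several interferon-stimulated genes had a higher response in dIEC. Of 50 genes of the list 37 were kept, and 3 of these, Rsad2, Ifit3 and Usp18, reached a mean of 1 FPKM in dIEC with TNF alone. They passed the minimum through the group in which they were high, so their calls are given as descriptions and count for nothing here. Of the other 34, 8 had a higher response in dIEC and none a lower one, against 1.35% higher among the 11050 genes left when such genes were set aside over the whole table (a split made after the values were seen), and the median difference was 0.44 against 0.03. With a minimum mean of 5 FPKM 1 of the list was called, with a pseudocount of 5 there were 20, and with sample weights 29. The counts of 20 and 29 include the 3 genes set aside. Rsad2 (chr12:26442746-26456452, build GRCm38), which encodes the antiviral enzyme viperin, had 0.139, 0.050, 0.119 and 0.195 FPKM in unstimulated f/f and 0.237, 0.402, 0.364 and 0.221 FPKM in f/f with TNF. For dIEC they were 0.148, 0.183, 0.170 and 0.127 FPKM without and 2.44, 4.22, 5.58 and 2.76 FPKM with TNF. Its level was below 1 FPKM in all libraries but the 4 of dIEC with TNF, which lay far above the rest. The response was 0.21 in f/f, where it did not pass, and 1.99 in dIEC, a difference of 1.78 ± 0.21 SE (adjusted p = 0.000288).

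Ifit1, an RNA-binding antiviral protein, already differed before TNF. It had 0.911, 0.812, 0.875 and 0.814 FPKM in unstimulated f/f and 2.77, 2.40, 2.70 and 2.03 FPKM in unstimulated dIEC, then 1.35, 2.28, 2.14 and 1.16 FPKM and 9.08, 14.5, 19.1 and 9.66 FPKM with TNF. The 4 groups did not overlap within a treatment, nor within a genotype, and the responses of 0.54 and 1.97 differed by 1.43 ± 0.27 SE (adjusted p = 0.00699). Its neighbour Ifit3 differed by 1.72 ± 0.32 SE and Usp18, a protease that removes ISG15 and dampens interferon receptor signalling, by 1.31 ± 0.23 SE, both by a response called in dIEC alone. Ifi27l2a, an interferon-induced mitochondrial gene that is not on the list and has similar copies among which reads could be split, reached 3.59, 4.95, 6.08 and 2.16 FPKM in dIEC with TNF and at most 1.23 FPKM elsewhere (difference 1.40 ± 0.31 SE, adjusted p = 0.0222). Ifi27l2a, too, reached a mean of 1 FPKM in dIEC with TNF alone, so its call is a description and counts for nothing here. That call was lost without dIEC unstimulated 2 or dIEC TNF 2 (adjusted p up to 0.0536) and with a pseudocount of 0.1 (0.206). Beside Rsad2, Ifit1, Ifit3 and Usp18, further called members of the list (Cmpk2, Xaf1, Ddx60, Eif2ak2, Parp12 and Ddx58, named after their values were seen) differed by 0.43 to 0.72. Of the 11 called in all, 7 were past the threshold in all 16 fits that left out 1 library, Cmpk2 in 6, and Ddx60 and Parp12 in 3 each. Among the 7 were Rsad2, Ifit3 and Usp18, set aside above, and the rest were Ifit1, Ddx58, Xaf1 and Eif2ak2. The genes set aside are also in the counts of all members that follow. The count of all called members was 7 without f/f unstimulated 1, 3 or 4, dIEC unstimulated 1, 2 or 3, f/f TNF 1 or 4, or dIEC TNF 2, it was 18 without dIEC TNF 4, and it was 22 without the 4 libraries that stood apart. Isg15, a ubiquitin-like modifier also named after its value was seen, rose from 1.57 to 6.27 FPKM in f/f and from 4.68 to 40.6 FPKM in dIEC as means, and its difference of 1.38 ± 0.40 SE did not pass (adjusted p = 0.0890).

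Interferon-inducible GTPases moved the same way: 3 of 4 kept members, of 17 listed, had a higher response in dIEC (1.39% over all genes). Irgm1, a regulator of these GTPases, had 11.7, 10.6, 11.6 and 11.9 FPKM in unstimulated f/f and 10.3, 10.9, 11.5 and 10.4 FPKM with TNF, and 13.6, 13.2, 12.9 and 13.9 and 17.2, 21.3, 22.7 and 18.2 FPKM in dIEC. The dIEC libraries with TNF were above all others, the f/f groups overlapped, and the difference was 0.61 ± 0.10 SE (adjusted p = 0.00308). Igtp, an effector GTPase, rose 2.93-fold in f/f and 4.34-fold in dIEC (difference 0.82 ± 0.18 SE, adjusted p = 0.0221), a call lost without dIEC TNF 2 (adjusted p = 0.0531) and with a pseudocount of 0.1 (0.208). Irgm2, the third called member, was named after its value was seen, differed by 0.61 and was past the threshold in 11 of the fits that left out 1 library. Igtp and Irgm2 overlap in the annotation, so the division of their reads is uncertain. Slfn2, an interferon-inducible growth regulator not on either list, had 0.0874, 0.0755, 0.0903 and 0.0983 FPKM in unstimulated f/f and 2.55, 3.44, 3.46 and 2.41 FPKM with TNF, and 0.445, 0.431, 0.389 and 0.431 and 11.2, 17.5, 19.5 and 12.0 FPKM in dIEC. Its difference of 1.60 ± 0.20 SE (adjusted p = 0.000358) depended on the scale. As folds of the mean FPKM the responses were 33.7 in f/f and 35.5 in dIEC, and with a pseudocount of 0.1 the call was lost (adjusted p = 0.0970). Across the 55 amplified upward genes, 41 were still past the threshold with a pseudocount of 0.1, and all 55 had the larger fold of mean FPKM in dIEC. None of 20 kept genes of interferon signalling (ligands, receptors, sensors and regulatory factors) passed the test of a difference by limma (3 at unadjusted p under 0.05), against 3.29% called over all genes.

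The promoters of these genes are shown because the members of the group are classically bound by interferon-activated factors at the interferon response element. RefSeq promoter windows of build GRCm38.p6, 250 bases before to 50 bases after the start, were found for 269 of 364 symbols of the 365 genes and searched on both strands for the core of that element, GAAA, then 2 bases of any kind, then GAAA. Each line gives 170 bases before the start, 5′ to 3′ on the strand of the gene, with matches in capitals.
Rsad2: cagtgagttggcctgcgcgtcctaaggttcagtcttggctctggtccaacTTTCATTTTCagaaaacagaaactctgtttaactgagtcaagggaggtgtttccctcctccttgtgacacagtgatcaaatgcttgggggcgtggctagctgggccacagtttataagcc
Ifit1: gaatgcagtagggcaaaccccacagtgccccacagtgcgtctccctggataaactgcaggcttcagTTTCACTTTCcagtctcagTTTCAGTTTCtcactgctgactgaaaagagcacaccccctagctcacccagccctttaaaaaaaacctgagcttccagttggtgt
Ifit3: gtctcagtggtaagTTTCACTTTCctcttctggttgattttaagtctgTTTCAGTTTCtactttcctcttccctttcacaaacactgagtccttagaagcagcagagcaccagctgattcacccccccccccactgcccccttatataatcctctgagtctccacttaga
Irgm1: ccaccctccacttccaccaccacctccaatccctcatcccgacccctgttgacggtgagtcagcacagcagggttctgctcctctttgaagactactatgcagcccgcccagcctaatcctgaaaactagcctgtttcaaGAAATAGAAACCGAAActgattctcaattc
Igtp: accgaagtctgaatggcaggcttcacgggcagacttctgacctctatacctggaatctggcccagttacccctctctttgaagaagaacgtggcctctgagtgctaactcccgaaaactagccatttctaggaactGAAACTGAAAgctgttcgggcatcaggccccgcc
The stretches are at chr12:26456453-26456622 on the minus strand, chr19:34640719-34640888 on the plus strand, chr19:34583359-34583528 on the plus strand, chr11:48871421-48871590 on the minus strand and chr11:58199386-58199555 on the plus strand. Ifit1, Ifit3 and Irgm1 each hold 2 matches and the others 1. Those of Irgm1 overlap, and capitals that begin with TTTC are the element read on the other strand.

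The element was present in 15 of 121 promoters of genes with a higher response in dIEC (12.4%) and in 8 of 148 of those with a lower one (5.41%), against 283 of 8186 kept genes (3.46%) and 3.99% of all 27025 promoters of the table. By class it was present in 8 of 44 gained upward genes (18.2%), among them Ddx60 and Eif2ak2, and in 6 of 40 amplified upward genes (15%). The AP-1 motif TGANTCA, read the same on both strands, was in 22 of the 121 (18.2%) and 11 of the 148 (7.43%), against 6.14% of kept genes and 8.97% of all promoters. It was in the promoters of Il1rn and Sprr1a and, with the interferon element, in 4 genes (Cxcl10, Ifit3, Irgm1 and Rsad2), with 0 overlaps between the matches. Rsad2 and Ifit3, set aside above, are counted in the 15, the 8 gained upward genes, the 22 and these 4. Il1rn and Duoxa2, which reached the minimum mean only with their levels in dIEC with TNF, are counted in the 22. The shares were not recounted without them. The NF-kB motif, GGGA, then 2 bases of any kind, then TTCC, was in 3 of the 121 (2.48%) and 2 of the 148 (1.35%), against 1.77% of kept genes and 1.63% of all promoters. A match describes letters in the window and not a bound site, and no match says only that these letters are not in it.

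Of 27 kept cell death genes 1 had a higher and 1 a lower response in dIEC, 7.41% in all against 3.29% of all genes. Mlkl (chr8:111311797-111338177), the pore-forming executor of necroptosis, had 3.97, 4.26, 4.00 and 4.20 FPKM in unstimulated f/f and 3.19, 3.67, 3.65 and 3.73 FPKM with TNF. The dIEC libraries had 4.30, 4.86, 3.87 and 4.76 FPKM and 6.19, 6.67, 6.62 and 5.78 FPKM. It fell in every f/f library with TNF below the unstimulated range and rose in every dIEC library above it, with responses of -0.16 and 0.43 (difference 0.59 ± 0.09 SE, adjusted p = 0.00154). Bcl2l11, which encodes the pro-apoptotic BH3 protein BIM, rose in both, 1.87-fold in f/f and 1.41-fold in dIEC (difference -0.30 ± 0.07 SE, adjusted p = 0.0206), a call lost without f/f unstimulated 3 (adjusted p = 0.0524). Ripk3, the kinase upstream of Mlkl, named after its value was seen, did not pass (difference 0.19 ± 0.12 SE, adjusted p = 0.606). Eda2r, a TNF-receptor family member known as a p53 target and not on the list, fell in f/f alone, from 3.26, 2.77, 2.73 and 2.98 to 1.97, 1.72, 1.48 and 1.64 FPKM, with 1.80, 2.27, 2.01 and 2.32 FPKM and 2.45, 2.47, 2.09 and 3.05 FPKM in dIEC (difference 0.72 ± 0.12 SE, adjusted p = 0.00310). The dIEC ranges overlapped and the f/f ranges did not.

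Genes of the fetal-like epithelial state, a repair-associated programme of injured intestine, included several with larger upward responses in dIEC. Of 23 listed genes 12 were kept, 1 of them, Anxa1, through dIEC with TNF alone. Of the other 11, 6 had a higher response and none a lower one (1.35% higher over the 11050 genes), and their median difference was 0.45, while 3 of the list were called with a minimum mean of 5 FPKM. The 6 include Il1rn, which reached the minimum only with its mean of 3.94 FPKM in dIEC with TNF (0.673 and 0.642 FPKM in unstimulated f/f and dIEC, 1.66 FPKM in f/f with TNF). Its call is therefore a description too, and the counts and median were not remade without it. These 6 and Anxa1 were past the threshold in each of the 16 fits that left out 1 library. Anxa1, an anti-inflammatory annexin, had 1.10, 0.754, 1.01 and 0.478 FPKM in unstimulated f/f and 0.695, 0.826, 0.896 and 0.727 FPKM with TNF. dIEC gave 0.624, 0.654, 0.675 and 0.943 FPKM and 2.47, 1.93, 2.00 and 2.26 FPKM, and the dIEC libraries with TNF were above all others, which overlapped (difference 0.90 ± 0.14 SE, adjusted p = 0.00221). Il1rn, the secreted antagonist of the interleukin-1 receptor, had 0.748, 0.553, 0.676 and 0.716 FPKM in unstimulated f/f, 0.607, 0.577, 0.762 and 0.620 FPKM in unstimulated dIEC, 1.44, 1.63, 1.95 and 1.60 FPKM in f/f with TNF and 3.74, 4.50, 4.36 and 3.17 FPKM in dIEC with TNF. The unstimulated groups overlapped and the stimulated ones did not (difference 0.92 ± 0.12 SE, adjusted p = 0.000541). Ly6a, the stem cell antigen Sca-1, rose 1.59-fold in f/f and 3.60-fold in dIEC. Ly6e and Anxa3 differed by 0.53 and 0.55, and these 3 were named after their values were seen.

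The EGF receptor ligands Ereg and Hbegf, 2 of 14 kept genes of that list (1.39% over all genes) and also members of the fetal-like list, rose more in dIEC, from 1.27 to 4.06 FPKM for Ereg (f/f 1.04 to 2.33) and from 2.26 to 4.62 FPKM for Hbegf (f/f 2.16 to 3.30). Their differences were 0.45 ± 0.09 SE and 0.34 ± 0.07 SE, and that of Ereg missed the threshold with a pseudocount of 0.1 (adjusted p = 0.0505). The next 3 genes are on no list. Sprr1a, a cornified envelope protein induced by injury, rose 2.48-fold and 5.51-fold (difference 1.09 ± 0.19 SE, adjusted p = 0.00399). Capg, an actin-capping protein, fell in f/f from 6.30, 7.08, 7.44 and 6.39 to 3.60, 4.83, 4.18 and 4.29 FPKM and rose in dIEC from 8.35, 7.74, 7.10 and 5.41 to 12.7, 9.88, 9.45 and 7.59 FPKM. The f/f groups did not overlap, while the dIEC groups did (difference 1.00 ± 0.19 SE, adjusted p = 0.00741). Akp3, an intestinal alkaline phosphatase, had 24.5, 31.6, 27.4 and 30.1 and 44.2, 41.2, 41.0 and 50.3 FPKM in f/f and 27.9, 31.6, 22.2 and 24.2 and 106, 88.4, 86.8 and 77.3 FPKM in dIEC, with the dIEC libraries with TNF above all others (difference 1.11 ± 0.16 SE, adjusted p = 0.00143). By symbol, a grouping made after the values were seen, 4 of 10 kept annexins (Anxa1, Anxa3, Anxa5 and Anxa10) and 2 of 7 kept S100 genes had higher responses in dIEC and none of either a lower one (1.39% and 1.9% over all genes). Anxa1 is counted in the 4 although it passed the minimum through dIEC with TNF alone, so its call is a description.

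**Figure D3:**
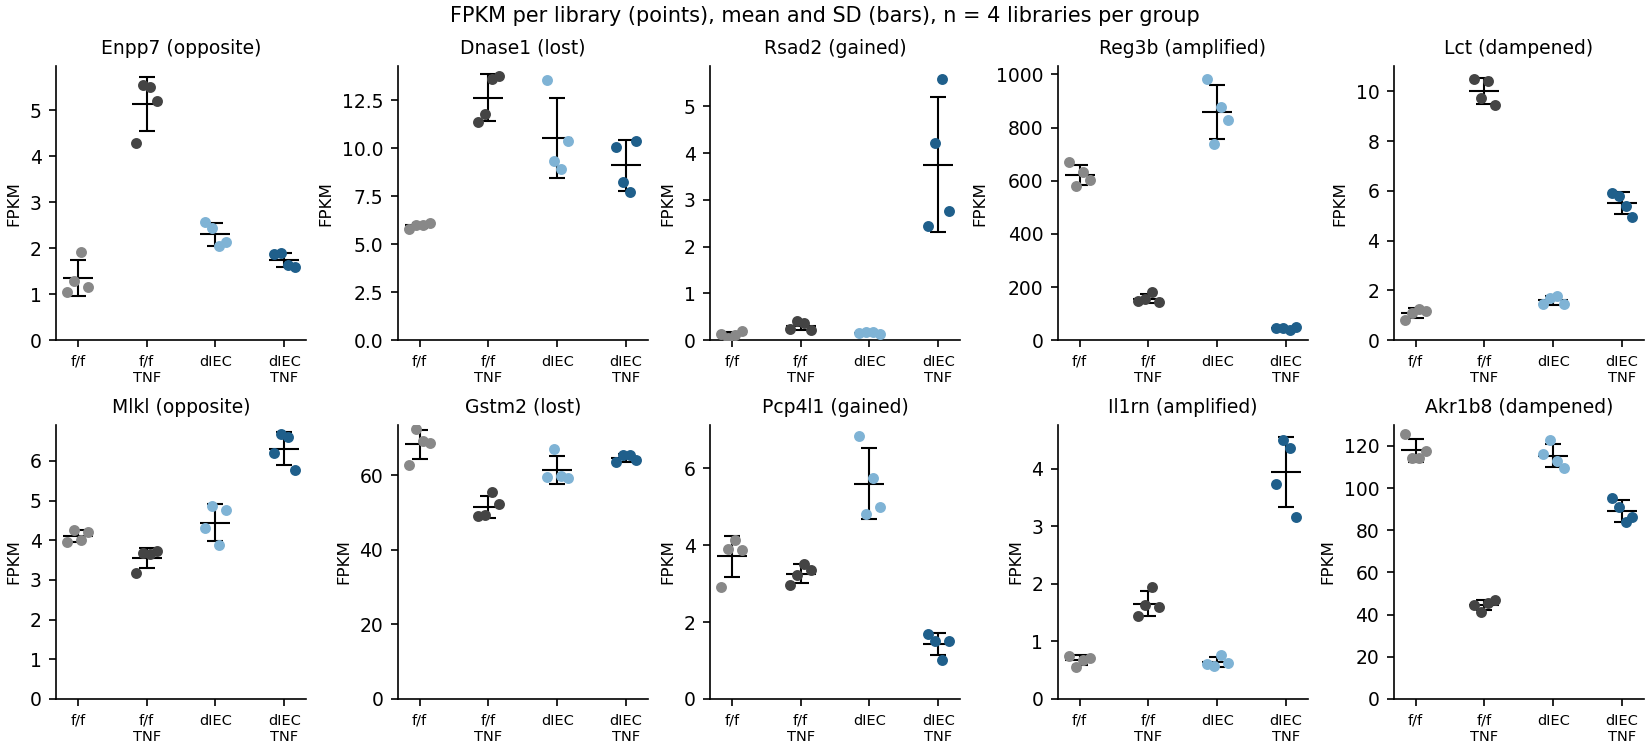
FPKM of 10 genes, 2 of each class, in every library (points), with the mean and SD of the 4 libraries of a group (bars); y axes start at 0. Rsad2 is high only in dIEC with TNF, Mlkl moves down in f/f and up in dIEC, and Lct rises in both but to a lower level in dIEC.

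Several targets of NRF2, the transcription factor of the oxidative stress response, fell less or rose more in dIEC. Of 31 kept members 19 fell and 3 rose in f/f, and 14 fell and 6 rose in dIEC; 8 had a higher response in dIEC and none a lower one (1.39% and 1.9% over all genes), with a median difference of 0.18. Akr1b8 (chr6:34354119-34368463), an aldo-keto reductase that clears reactive carbonyls, had 126, 114, 114 and 117 FPKM in unstimulated f/f and 44.6, 41.4, 45.5 and 47.2 FPKM with TNF. In the dIEC libraries it was at 116, 123, 113 and 109.7 FPKM without and 95.4, 91.2, 84.1 and 86.1 FPKM with TNF. The unstimulated groups overlapped, and with TNF every dIEC library was above every f/f library (difference 1.01 ± 0.08 SE, adjusted p = 3.02e-06). Its relative Akr1b10, not on the list and of closely related sequence, was called in opposite directions, from 3.33 to 2.78 FPKM in f/f and from 2.69 to 3.62 FPKM in dIEC (difference 0.52 ± 0.10 SE, adjusted p = 0.00821). How the authors divided reads shared by the 2 genes is not given, so the values of both are uncertain.

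Gsta4, a glutathione transferase for lipid peroxidation products, had 584, 500.4, 491 and 504 FPKM and 283, 276, 288 and 296 FPKM in f/f and 504, 515, 496 and 491 FPKM and 472, 436, 413 and 484 FPKM in dIEC, with responses of -0.86 and -0.15 (difference 0.70 ± 0.09 SE, adjusted p = 0.000308). Gstm2, another transferase, on no list, fell in f/f alone, from 62.9, 72.3, 69.2 and 68.8 to 49.0, 49.3, 55.4 and 52.4 FPKM, against 59.6, 66.9, 59.7 and 59.3 and 63.5, 65.4, 65.5 and 64.0 FPKM in dIEC (difference 0.47 ± 0.08 SE, adjusted p = 0.00235). Cbr3, a carbonyl reductase, fell to 0.343 of its mean in f/f and to 0.502 in dIEC. Its call (adjusted p = 0.0448) was kept in 2 of the 16 fits that left out 1 library, those without f/f TNF 4 and dIEC TNF 4 (adjusted p up to 0.0998 in the rest), and was lost with no minimum mean and with one of 5 FPKM (adjusted p up to 0.0621). Hmox1, the haem-degrading oxygenase, rose in both genotypes, from 4.20 to 12.5 FPKM in f/f and from 2.44 to 17.0 FPKM in dIEC (difference 1.01 ± 0.14 SE, adjusted p = 0.000761). Gstm3, Me1, Srxn1 and Gsr, named with Hmox1 after their values were seen, differed by 0.22 to 0.48, and Gsr was past the threshold in 2 of the 16 fits. Nqo1, a classical NRF2 target also named after its value was seen, fell from 190.2 to 72.7 FPKM in f/f and from 207 to 105 FPKM in dIEC, and the difference of 0.40 ± 0.11 SE did not pass (adjusted p = 0.0808).

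Absorptive enterocyte genes went the other way. Of 28 kept members 10 had a lower response in dIEC and none a higher one (1.9% and 1.39% over all genes), 27 of the 28 estimates were below 0 and the median difference was -0.39. In f/f 12 rose and 9 fell with TNF, and in dIEC 5 rose and 14 fell. Lct (chr1:128284756-128328318), the lactose-digesting enzyme lactase, rose from 0.816, 1.09, 1.24 and 1.19 to 10.5, 9.71, 10.4 and 9.45 FPKM in f/f and from 1.45, 1.70, 1.79 and 1.47 to 5.90, 5.80, 5.40 and 4.94 FPKM in dIEC. Its rise was 9.22-fold in f/f and 3.44-fold in dIEC, from a higher start and to a lower end with no overlap between genotypes in either state (difference -1.08 ± 0.10 SE, adjusted p = 3.15e-05).

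A further 8 called enterocyte genes were named after their values were seen. Sis, sucrase-isomaltase, rose from 369 to 528 FPKM in f/f and had 495 and 443 FPKM in dIEC, where the response did not pass. Slc5a1, the sodium-glucose cotransporter SGLT1, rose 2.51-fold and 1.69-fold, and Mme, the peptidase neprilysin, fell to 0.617 and 0.372 of its unstimulated mean. The peptide transporter Slc15a1, the trehalase Treh and the keratin Krt20 each rose in f/f and fell in dIEC, with differences of -0.66, -0.63 and -0.42. Dpp4 and Slc2a2 differed by -0.35 and -0.32. Of the 10, 8 were past the threshold in all 16 fits that left out 1 library, Krt20 in 12 and Slc2a2 in 3. The summed level of the 28 genes was 10167 to 10543 FPKM in unstimulated f/f, 10885 to 13046 in unstimulated dIEC, 12361 to 12948 in f/f with TNF and 10943 to 12504 in dIEC with TNF. The sums for stem cell genes were 1349 to 1551, 1150 to 1403, 1997 to 2194 and 1761 to 1873 FPKM in the same order. Their part in the differences was not tested.

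Named genes outside the enterocyte list also had a lower response. Enpp7 (chr11:118988188-118993221), the alkaline sphingomyelinase of the brush border, had 1.05, 1.28, 1.92 and 1.16 FPKM in unstimulated f/f and 4.30, 5.54, 5.51 and 5.20 FPKM with TNF. The dIEC values were 2.57, 2.43, 2.05 and 2.14 FPKM and 1.86, 1.89, 1.63 and 1.59 FPKM. It rose in f/f by 1.39 and fell in dIEC, response -0.26 (difference -1.66 ± 0.14 SE, adjusted p = 1.45e-05), with no overlap between treatments of a genotype or between genotypes of a treatment. G6pc, glucose-6-phosphatase of gluconeogenesis, went from 7.47, 7.65, 7.91 and 8.87 to 10.0, 9.66, 10.6 and 11.1 FPKM in f/f and from 11.8, 10.2, 9.37 and 12.5 to 6.65, 4.93, 5.01 and 5.95 FPKM in dIEC (difference -1.19 ± 0.13 SE, adjusted p = 0.000156). The cytochromes Cyp4b1 and Cyp4f14, which hydroxylate fatty acids and related lipids, fell in dIEC alone, to 0.502 and 0.607 of their unstimulated means (differences -0.82 and -0.80). Slc13a2, a citrate and dicarboxylate transporter, rose 2.50-fold in f/f and had a fold of 1.02 in dIEC (difference -1.04 ± 0.24 SE, adjusted p = 0.0285), past the threshold in 7 of the 16 fits, those without f/f unstimulated 1, 2 and 3, f/f TNF 1, dIEC unstimulated 4 and dIEC TNF 2 and 3 (adjusted p up to 0.0669 in the rest).

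Aqp8, a water channel, rose 3.41-fold and 1.82-fold (difference -0.75 ± 0.18 SE, adjusted p = 0.0332) and was past the threshold in 5 of the 16 fits, those without f/f unstimulated 1, f/f TNF 1, dIEC unstimulated 4 and dIEC TNF 1 and 4 (adjusted p up to 0.0771 in the rest), and not with no minimum mean (adjusted p = 0.0516). Vldlr, a lipoprotein receptor on the ATF4 list, rose 2.13-fold and 1.62-fold (difference -0.33 ± 0.08 SE, adjusted p = 0.0375), past the threshold in 4 of the fits, those without f/f TNF 1, dIEC unstimulated 3 and 4 and dIEC TNF 4 (adjusted p up to 0.0829 in the rest). Its call was also lost with a pseudocount of 0.1, with no minimum mean and under quantile normalization (adjusted p up to 0.0675). By symbol, again grouped after the values were seen, 22 of 211 kept solute carriers (10.4%) had a lower response in dIEC and 1 a higher one, and 8 of 38 cytochromes P450 (21.1%) and 3 of 12 carboxylesterases (25%) had a lower response and none a higher one, against 1.9% lower and 1.39% higher over all genes. Cd36, a fatty acid transporter, fell to 0.494 of its mean in f/f and 0.233 in dIEC (difference -0.94 ± 0.11 SE). Scd1, a desaturase of fatty acid synthesis, fell to 0.887 and 0.462 (difference -0.93 ± 0.08 SE, adjusted p = 2.38e-05), and both were named after their values were seen. None of 25 kept sterol synthesis genes passed by limma (1 at unadjusted p under 0.05), against 3.29% called over all genes.

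**Figure D4:**
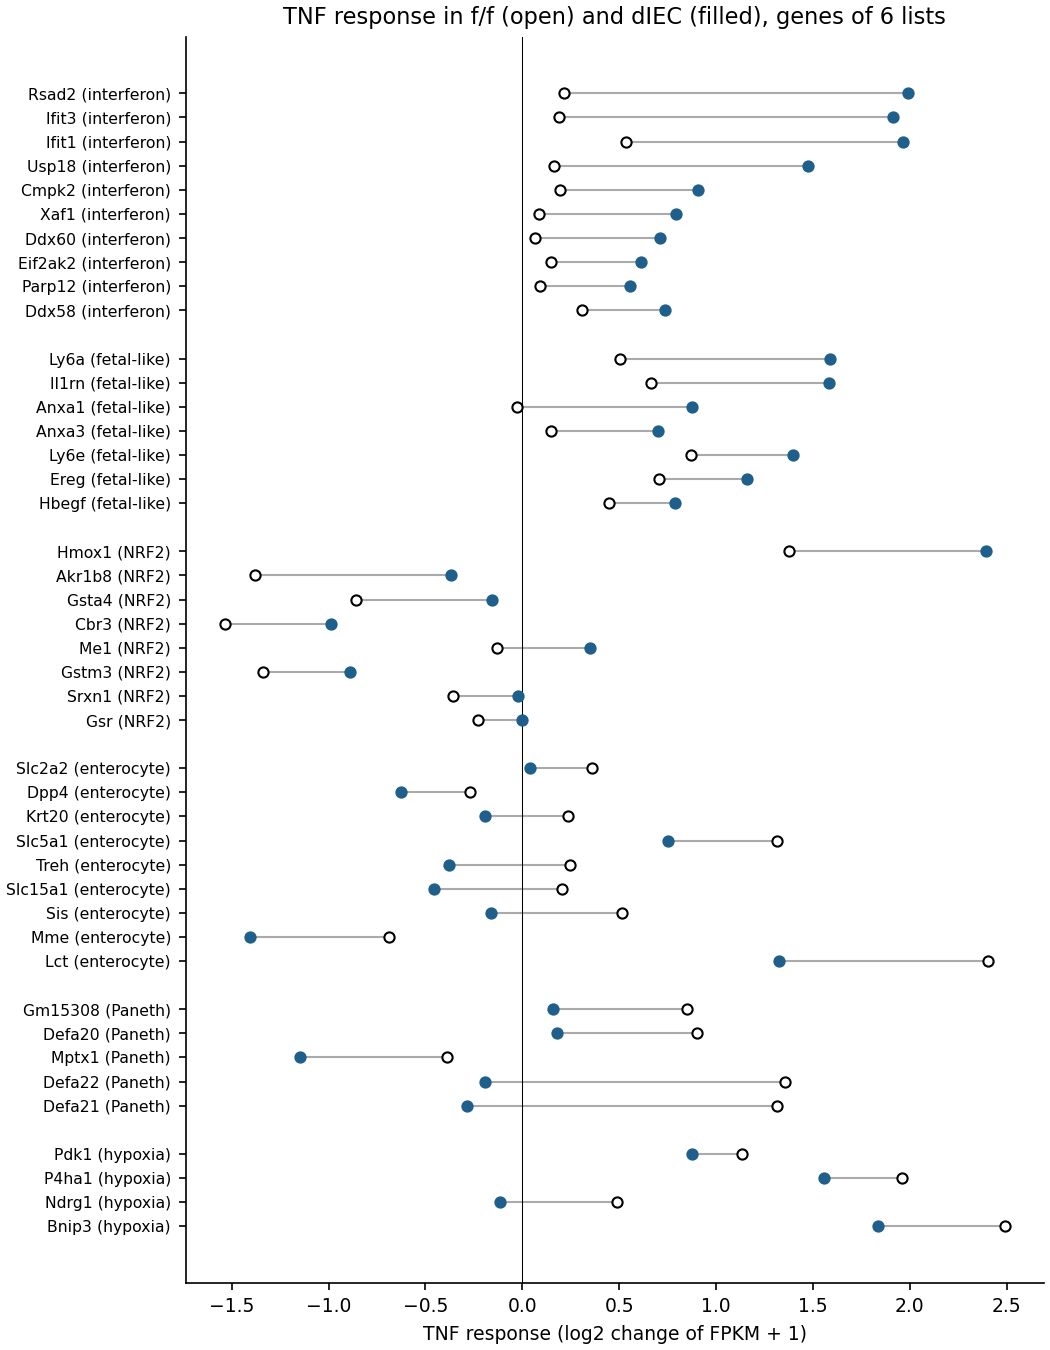
TNF response (log2 change of FPKM + 1) in f/f (open circles) and dIEC (filled circles) of called genes of 6 lists, joined by a line. Filled circles lie to the right of open circles for the interferon, fetal-like and NRF2 genes and to the left for the enterocyte, Paneth and hypoxia genes, a side that the call itself fixes for each gene.

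Antimicrobial genes split by kind. Of 11 kept members 3 had a lower response in dIEC (1.9% over all genes), all of them Reg lectins, and 3 a higher one (1.39%), all of them enzymes that make reactive oxygen or nitrogen or their partner. That partner, Duoxa2, reached the minimum only with its mean of 3.97 FPKM in dIEC with TNF (0.410 and 0.688 FPKM in unstimulated f/f and dIEC, 1.49 FPKM in f/f with TNF). Its call is therefore a description and counts for nothing in this split. Reg3b (chr6:78370657-78373466), a bactericidal lectin, had 669, 581, 633 and 601 FPKM in unstimulated f/f and 147, 153, 183 and 144 FPKM with TNF. For dIEC they were 983, 739, 879 and 828 FPKM without and 47.2, 44.8, 39.5 and 49.4 FPKM with TNF. It started higher in dIEC and ended lower, with no overlap between any of the 4 groups, and fell to 0.252 of its mean in f/f and 0.0527 in dIEC (difference -2.23 ± 0.14 SE, adjusted p = 4.66e-07). Reg3a, its neighbour on chromosome 6, had 256, 251, 261 and 257 and 222, 218, 245 and 219.7 FPKM in f/f and 430.4, 351, 398 and 389.8 and 126, 115, 113 and 136 FPKM in dIEC. In f/f the fall was small and in dIEC it was to 0.312 of the mean (difference -1.49 ± 0.10 SE, adjusted p = 4.66e-07).

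Reg1, Nos2, Duox2 and Duoxa2 were named after their values were seen. Nos2, inducible nitric oxide synthase, rose from 0.441 to 11.9 FPKM in f/f and from 0.942 to 31.5 FPKM in dIEC (difference 0.90 ± 0.12 SE, adjusted p = 0.000611), folds of 27.0 and 33.4, and the call was lost with a pseudocount of 0.1 (adjusted p = 0.257). Duox2, the epithelial hydrogen peroxide producer, rose 3.12-fold and 5.04-fold and its maturation factor Duoxa2 3.62-fold and 5.77-fold, the latter lost with a pseudocount of 0.1 (adjusted p = 0.0710). Reg1 differed by -0.50 and was past the threshold in 2 of the 16 fits. Dmbt1, a mucosal scavenger receptor, fell from 177 to 85.3 FPKM in f/f and from 154 to 118 FPKM in dIEC (difference 0.66 ± 0.15 SE, adjusted p = 0.0297), past the threshold in 5 of the 16 fits, those without f/f unstimulated 1, f/f TNF 1 and 3 and dIEC unstimulated 2 and 4 (adjusted p up to 0.0652 in the rest), and lost under quantile normalization (adjusted p = 0.0667). Mbl2, a secreted pattern-recognition lectin, fell in dIEC alone, from 2.60, 1.93, 1.95 and 1.91 to 0.491, 0.969, 0.439 and 0.631 FPKM, against 1.66, 1.73, 1.37 and 1.77 and 1.34, 2.15, 1.83 and 1.92 FPKM in f/f (difference -1.02 ± 0.16 SE, adjusted p = 0.00191).

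Paneth cell genes gave 5 of 30 kept rows with a lower response in dIEC and none with a higher one (1.9% and 1.39% over all genes), with a median difference of -0.14. Defa21 (chr8:21025545-21026516), an alpha-defensin, had 62.9, 56.2, 56.6 and 52.3 FPKM in unstimulated f/f and 153, 149, 142 and 130.3 FPKM with TNF. The dIEC libraries had 56.1, 46.8, 59.0 and 52.2 FPKM and 45.2, 43.1, 42.7 and 43.4 FPKM. The f/f libraries with TNF lay far above all others and the dIEC libraries with TNF just below the rest, and the responses of 1.32 and -0.29 had opposite signs (difference -1.60 ± 0.10 SE, adjusted p = 4.66e-07). Defa22, of near-identical sequence in the same cluster on chromosome 8, had nearly the same values (difference -1.55 ± 0.10 SE), and Defa20 and Gm15308, named after their values were seen, differed by -0.72 and -0.69. The division of reads among these copies is uncertain, so they may not be 4 separate measurements. Mptx1, a pentraxin of Paneth cells also named after its value was seen, fell more in dIEC (difference -0.76). Lyz1, the abundant Paneth lysozyme, likewise named, did not pass (difference -0.04 ± 0.11 SE, adjusted p = 0.971). The 27 Paneth symbols summed to 32734 to 37253 FPKM in unstimulated f/f, 23758 to 28611 in unstimulated dIEC, 29882 to 35548 in f/f with TNF and 22130 to 23446 in dIEC with TNF, lower in dIEC before and after TNF with no overlap.

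Other secretory genes were called singly, at 6.25% of the goblet and 5% of the enteroendocrine list, near the 3.29% of all genes. Of 16 kept goblet cell genes 1 passed: Zg16, a mucus lectin that aggregates bacteria, fell to 0.564 of its mean in f/f and 0.332 in dIEC (difference -0.75 ± 0.13 SE, adjusted p = 0.00380). Of 20 kept enteroendocrine genes 1 passed: Tph1, the rate-limiting enzyme of serotonin synthesis in the gut, rose in dIEC alone, from a mean of 5.96 to 8.24 FPKM, against 6.47 and 6.36 FPKM in f/f (difference 0.43 ± 0.10 SE, adjusted p = 0.0352). That call was kept in 5 of the 16 fits, those without f/f TNF 1 and 3, dIEC unstimulated 2 and 4 and dIEC TNF 3 (adjusted p up to 0.0794 in the rest), and lost without the 4 libraries that stood apart and under quantile normalization. The 23 enteroendocrine genes summed to 687 to 721 FPKM in unstimulated f/f, 709 to 819 in unstimulated dIEC, 679 to 769 in f/f with TNF and 918 to 1065 in dIEC with TNF, and the part of this sum in the difference was not tested. Spink3, a trypsin inhibitor, had 564, 493, 493 and 443 and 241, 338, 241 and 228 FPKM in f/f and 726, 541, 818 and 619.6 and 148, 139.8, 119 and 172 FPKM in dIEC, lower in every library with TNF than without and lowest in dIEC with TNF (difference -1.27 ± 0.21 SE, adjusted p = 0.00306). Scin, an actin-severing protein, fell to 0.861 of its mean in f/f and 0.428 in dIEC (difference -0.99 ± 0.07 SE, adjusted p = 3.02e-06). None of 21 stem cell and Wnt genes and none of 6 tuft cell genes passed by limma (1 and 1 at unadjusted p under 0.05), against 3.29% called over all genes.

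Among MHC class II genes, which present antigen to CD4 T cells, 2 rose less in dIEC, from a higher start. Of 8 kept members 2 had a lower response by the test and none a higher one (1.9% and 1.39% over all genes), all 8 estimates were below 0 and the median was -0.55. Cd74, the invariant chain, had 1.54, 2.38, 2.42 and 2.13 FPKM in unstimulated f/f and 5.44, 5.68, 5.68 and 3.90 FPKM in unstimulated dIEC, and 36.5, 56.9, 55.3 and 47.1 and 40.1, 45.5, 50.4 and 29.7 FPKM with TNF. The unstimulated groups did not overlap and the stimulated ones did, and the rise was 23.1-fold in f/f and 8.00-fold in dIEC (difference -1.22 ± 0.24 SE, adjusted p = 0.00973). H2-Ab1, the class II beta chain, rose 17.9-fold and 6.48-fold (difference -0.98 ± 0.21 SE, adjusted p = 0.0152). Without f/f TNF 1 there were 4 called members, and 5 without the 4 libraries that stood apart. With a pseudocount of 5 both calls were lost (adjusted p = 0.0537 and 0.0908). Of 20 immune cell markers, which include antigen-presenting cell genes, only Lyz2 was kept, and the 18 in the table summed to 27.8 to 33.3 FPKM in unstimulated f/f, 21.4 to 25 in unstimulated dIEC, 32.7 to 38.8 in f/f with TNF and 25.1 to 30.1 in dIEC with TNF, lower in dIEC in both states. Their part in the difference was not tested. None of 25 kept class I genes passed by limma (2 at unadjusted p under 0.05), against 3.29% called over all genes.

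Genes of the hypoxia response and glycolysis rose in both genotypes, 30 of 31 kept members in f/f and 29 in dIEC, and 4 had a lower response in dIEC and none a higher one (1.9% and 1.39% over all genes, median difference -0.21). Bnip3, a mitochondrial autophagy receptor induced by hypoxia, had 10.5, 10.0, 11.6 and 10.3 FPKM in unstimulated f/f and 20.1, 14.6, 16.6 and 13.5 FPKM in unstimulated dIEC, and 65.3, 66.8, 62.4 and 61.8 and 56.9, 57.9, 59.1 and 65.3 FPKM with TNF. As for Cd74, the unstimulated groups were apart and the stimulated groups overlapped (difference -0.66 ± 0.13 SE, adjusted p = 0.00973). Ndrg1, a stress-induced differentiation gene, rose in f/f alone, from 109.7, 126, 124 and 119.6 to 163, 165, 174 and 171 FPKM, against 141, 146, 130.3 and 124 and 129.7, 127, 117 and 125 FPKM in dIEC (difference -0.61 ± 0.08 SE, adjusted p = 0.000680). P4ha1 and Pdk1, named after their values were seen, differed by -0.40 and -0.26, each past the threshold in 5 of the 16 fits. There were 2 called members without f/f unstimulated 2 or 4, dIEC unstimulated 1 or 3, f/f TNF 2 or 3, or dIEC TNF 1, 2 or 3, there were 8 without dIEC unstimulated 4, and 11 without the 4 libraries that stood apart.

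**Figure D5:**
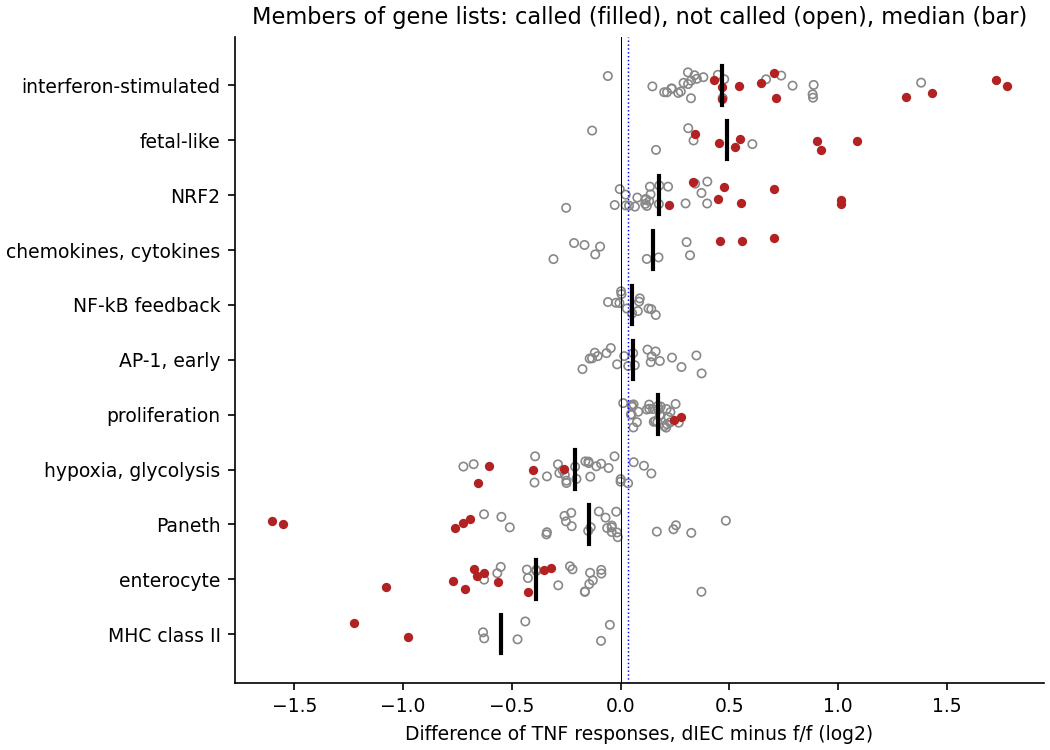
Difference of TNF responses, dIEC minus f/f on the log2 scale, for the kept members of 11 gene lists; filled points passed the test, open points did not, black bars are list medians, the solid line is 0 and the dotted line the median of all 11097 genes, 0.03. Called points lie right of 0 for the interferon, fetal-like and NRF2 lists, left of 0 for the enterocyte, Paneth and MHC class II lists, and the NF-kB feedback and AP-1 lists hold none.

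Some differences lay outside these groups. Fmr1nb (chrX:68761839-68804567), a gene otherwise known from testis, had 8.56, 8.47, 5.91 and 8.28 FPKM in unstimulated f/f and 1.13, 1.28, 0.579 and 1.20 FPKM with TNF, and 0.0371, 0.688, 0 and 0.0791 FPKM and 0.401, 0.0860, 0.240 and 0.355 FPKM in dIEC. It was low in dIEC in either state and fell in f/f alone (difference 2.22 ± 0.24 SE, adjusted p = 0.000116). Fmr1nb reached the minimum mean only through unstimulated f/f, the group in which it was high, so its call is a description. With unstimulated dIEC near 0 FPKM a fall there could hardly be seen, and the genotype difference before TNF was already -2.90 on the log2 scale. Dnase1, a secreted nuclease, had 5.82, 5.99, 6.03 and 6.09 and 11.4, 11.8, 13.6 and 13.8 FPKM in f/f and 13.6, 9.35, 8.94 and 10.4 and 10.1, 8.27, 7.73 and 10.4 FPKM in dIEC, high in all groups but unstimulated f/f (difference -1.15 ± 0.16 SE, adjusted p = 0.000786). Prss30, a serine protease, and Osr2, a zinc finger transcription factor, likewise rose in f/f alone (4.59-fold and 2.25-fold, differences -0.94 and -0.87). Car2, a carbonic anhydrase, fell in f/f alone from 3.49 to 2.29 FPKM, against 2.62 and 2.83 FPKM in dIEC (difference 0.53 ± 0.11 SE, adjusted p = 0.0131). Pcp4l1, related to the calmodulin regulator PCP4, fell in dIEC alone from 6.83, 4.80, 5.75 and 5.00 to 1.68, 1.5, 1.00 and 1.5 FPKM, and f/f had 2.91, 3.90, 4.13 and 3.87 and 2.95, 3.23, 3.52 and 3.34 FPKM (difference -1.31 ± 0.16 SE, adjusted p = 0.000288).

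Cell cycle genes gave 2 calls, both higher in dIEC, and these depended on the scaling. Of 32 kept proliferation genes 2 had a higher response in dIEC (1.39% over all genes), and all 32 estimates were above 0 with a median of 0.17. Ccnb1, cyclin B1, had means of 48.9 and 43.8 FPKM in f/f and 46.6 and 50.9 FPKM in dIEC (difference 0.28 ± 0.05 SE, adjusted p = 0.00691). Cdk1, its kinase, differed by 0.24 ± 0.06 SE (adjusted p = 0.0247) and lost its call without f/f unstimulated 3, f/f TNF 3, dIEC unstimulated 2 and dIEC TNF 3 (adjusted p up to 0.0641). The count was 5 without f/f unstimulated 1 or dIEC unstimulated 4, 1 without f/f unstimulated 3, dIEC unstimulated 2, f/f TNF 3 or dIEC TNF 3, and 14 without the 4 libraries that stood apart. Under median-of-ratios scaling and under quantile normalization 0 of the list were called. Mitd1, which acts at the midbody in late cell division, differed by 0.31 ± 0.08 SE (adjusted p = 0.0387), lost its call under both scalings and was past the threshold in 4 of the 16 fits, those without f/f unstimulated 3, f/f TNF 3, dIEC unstimulated 4 and dIEC TNF 1 (adjusted p up to 0.0873 in the rest). Of 47 kept proteasome genes, grouped by symbol after the values were seen, 4 had a higher response (Psmc1, Psmc2, Psmd1 and Psmd12), by 0.19 to 0.27 (1.39% over all genes), and none was past the threshold in more than 8 of the 16 fits.

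The degradation and stress lists held few calls, and few were called over all genes (3.29%), so these counts are not read as a trait of the lists. None of 35 kept autophagy genes, 28 lysosome genes and 24 genes of the unfolded protein response passed the test by limma (2, 3 and 1 at unadjusted p under 0.05), and of 23 ATF4 targets only Vldlr did. Neither of the 2 kept mesenchymal and endothelial genes, Vim and Lyve1, passed. At unadjusted p under 0.05 there were 1465 genes over the whole table. In simulated data of the same size, with noise drawn independently for each gene and library, the test recovered 61% of 100 planted differences of 0.5 and 92% of 100 of 1 on the log2 scale. Part of the smaller differences was thus left uncalled there. Deviations shared by genes or libraries, as seen in these data, were not simulated, so the shares may not hold for them.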

How the data were processed

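The authors deposited 1 table of FPKM values per gene and library (fragments scaled to transcript length and mapped fragments). Tools listed, per the submitters' processing notes, were TopHat2 2.1.1, Cufflinks 2.2.1 and Cuffdiff, with build mm10, and their order and settings are not recorded, nor how shared reads and strand were treated. The RNA came from a TRIzol extraction and the libraries followed a standard Illumina preparation, per the labels' protocols. Read depth is unknown, so no counting interval is given. Each library has 1 column, and 0 columns were left unused. Groups came from the sample titles.

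Genes with a mean of at least 1 FPKM were kept. limma 3.58.1 in R 4.3.3 fitted 4 group means to log2(FPKM + 1) with a trended prior (12 residual and 2.52 prior degrees of freedom), and 5 contrasts were tested two-sided with Benjamini-Hochberg adjustment over the 11097 genes. Adjusted p-values without another source named come from it, with 4 libraries in each group, and SE denotes the fit's standard error on the log2 scale. A log2 change on this scale understates that of genes with few FPKM, so folds of the mean FPKM are given beside it. The 31 gene lists (742 symbols, 580 kept) were described by counts and medians, with no test of a list. Members, lists and motifs were chosen with earlier results of these data known. Named genes were Atg16l1, the 4 of largest difference in each class and direction, and up to 2 of smallest adjusted p in each list; others are marked as named after their values were seen, and some results are not reported here.

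Alternatives were pseudocounts of 0.1 and 5, no minimum and a minimum mean of 5, median-of-ratios scaling, quantile normalization, sample weights, replicate blocks, removal of the GC trend, and leaving out libraries. Gene positions and GC content are from GENCODE vM21 and promoters from RefSeq, both of GRCm38. The test was tried on simulated data of 11097 genes with independent noise (5 false calls among the genes with no planted difference).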

Additional observations from a re-analysis of the deposited data

Results flagged for a closer look

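Named genes whose TNF response differed between the genotypes by the test of the difference, 57 in number, are listed here with that difference, dIEC minus f/f on the log2 scale. On the interferon lists the upward differences were 1.78 for Rsad2, 1.72 for Ifit3, 1.43 for Ifit1, 1.31 for Usp18, 0.82 for Igtp and 0.61 for Irgm1. On the cytokine list they were 0.56 for Cxcl16 and 0.46 for Tnf, on the fetal-like list 0.92 for Il1rn, 0.90 for Anxa1, 0.45 for Ereg and 0.34 for Hbegf, and on the NRF2 list 1.01 for Akr1b8, 0.70 for Gsta4 and 0.55 for Cbr3. Mlkl of the cell death list had 0.59, Tph1 of the enteroendocrine list 0.43, and Ccnb1 and Cdk1 of the proliferation list 0.28 and 0.24. Upward differences of genes on no list were 1.60 for Slfn2, 1.40 for Ifi27l2a, 1.11 for Akp3, 1.09 for Sprr1a, 1.00 for Capg, 0.52 for Akr1b10, 0.47 for Gstm2, 2.22 for Fmr1nb, 0.72 for Eda2r, 0.66 for Dmbt1, 0.53 for Car2 and 0.31 for Mitd1.

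Downward differences of genes on a list were -2.23 for Reg3b, -1.49 for Reg3a, -1.60 for Defa21, -1.55 for Defa22, -0.75 for Zg16, -1.08 for Lct, -0.33 for Vldlr, -1.22 for Cd74, -0.98 for H2-Ab1, -0.66 for Bnip3, -0.61 for Ndrg1, -0.61 for Cd83 and -0.30 for Bcl2l11. Those of genes on no list were -1.27 for Spink3, -1.02 for Mbl2, -0.99 for Scin, -1.66 for Enpp7, -1.19 for G6pc, -1.04 for Slc13a2, -0.82 for Cyp4b1, -0.80 for Cyp4f14, -0.75 for Aqp8, -1.31 for Pcp4l1, -1.15 for Dnase1, -0.94 for Prss30 and -0.87 for Osr2.

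In 17 of 236 groups of 4 libraries, 1 value lay far from the other 3 of its group by Dixon's criterion, which chance meets in about 1 in 20 groups. In unstimulated f/f these were Gsta4 at 584 FPKM and Ereg at 1.20 FPKM in library 1, and Cd83 at 3.53 FPKM and Fmr1nb at 5.91 FPKM in library 3. With TNF in f/f they were Cyp4f14 at 174 FPKM and Mlkl at 3.19 FPKM in library 1, Spink3 at 338 FPKM in library 2, Reg3a at 245 FPKM and Ereg at 2.68 FPKM in library 3, and Bcl2l11 at 4.02 FPKM in library 4. In unstimulated dIEC they were Mbl2 at 2.60 FPKM in library 1, Gstm2 at 66.9 FPKM and Fmr1nb at 0.688 FPKM in library 2, and Anxa1 at 0.943 FPKM, Cd74 at 3.90 FPKM and Sprr1a at 3.34 FPKM in library 4. In dIEC with TNF it was Cd83 at 8.65 FPKM in library 4.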

How the results depend on the processing

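All 365 genes kept the sign of the difference in each alternative that tested them, and 0 of the 58 named genes reversed. Of 1567 pairs of a named gene and a setting, 1446 gave the same outcome as the main fit and 121 lost the call. The 1446 include 27 pairs of Atg16l1, which was not called in any setting. Of the 365 genes, 218 were past the threshold in all 16 fits that left out 1 library. The counts moved more. With a minimum mean of 5 FPKM, fewer genes were tested (8144) and 195 were called (85 higher, 110 lower; opposite 22, lost 31, gained 51, amplified 74, dampened 17). Among interferon-stimulated genes 1 was then called. With sample weights 1920 were called (1239 higher, 681 lower; opposite 130, lost 266, gained 490, amplified 866, dampened 167). Without the 4 libraries that stood apart 967 were called (532 higher, 435 lower; opposite 80, lost 135, gained 271, amplified 392, dampened 89). Causes were not tested.

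With a replicate block within genotype 1231 were called (701 higher, 530 lower; opposite 101, lost 188, gained 324, amplified 487, dampened 131), and with that block and the GC trend removed 1375 (777 higher, 598 lower; opposite 104, lost 174, gained 402, amplified 566, dampened 129). A block across genotypes gave 443, and Cbr3 was not among them. The labels do not say that a number marks a shared culture. Deviations of same-numbered libraries correlated with r from -0.03 to 0.42 within a genotype, and 7 of the 8 unstimulated libraries correlated best with the TNF library of their own number (f/f 4 with 3), a hint from the data and not from the design. Pseudocounts of 0.1 and 5, no minimum mean, median-of-ratios scaling and quantile normalization gave 321, 394, 454, 403 and 367 calls. The share higher in dIEC was 42.2% as reported, 32.5% and 34.9% under the 2 scalings, which moved the median difference from 0.03 to 0.00448 and 0.00663, and 64.5%, 56.9%, 56.5% and 55.0% with sample weights, the block, the block with the GC trend removed, and the 4 libraries left out.

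Leaving out 1 library gave 240 to 450 calls, 85 to 228 higher, 22 to 39 opposite, 28 to 62 lost and 17 to 41 dampened. Higher calls fell by more than 1.5 times without f/f unstimulated 2 (97), 3 (94) or 4 (85), dIEC unstimulated 1 (96), dIEC TNF 2 (93) or f/f TNF 2. Lost genes fell to 28 to 33 without f/f unstimulated 3 or 4, dIEC unstimulated 1, f/f TNF 2 or 3, or dIEC TNF 1 or 2. Dampened genes fell to 17 to 21 without f/f unstimulated 2 or 4, dIEC unstimulated 2, f/f TNF 2, 3 or 4, or dIEC TNF 2, and opposite genes to 22 or 23 without f/f TNF 2 or 3 or dIEC TNF 3. FPKM give no depth, so how far counting error limits genes near 1 FPKM is unknown.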

Other observations

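The TNF responses beyond 5 on the log2 scale came from 10 rows, none called for a difference (adjusted p of 0.370 or more by limma), and 6 of them were pairs carrying the same symbol whose levels exchanged. For Rnaset2b, a ribonuclease gene, one row went from a mean of 84.9 FPKM without TNF to 0.370 FPKM with TNF in f/f and the other from 0.928 to 78.2 FPKM. The dIEC libraries showed the same exchange, from 85.3 to 0.525 FPKM and from 0.543 to 77.7 FPKM. The rows of Gm5506 and Mir684-1 exchanged in the same way in both genotypes. Snord52, a small nucleolar RNA, was listed at 0 in unstimulated dIEC and in f/f with TNF and had means of 442 FPKM in unstimulated f/f and 1068 FPKM in dIEC with TNF, and its difference did not pass (adjusted p = 0.370). The reason for the exchanges was not tested.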
